A study of Mus musculus with 6 samples.

Results

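Cholesterol synthesis was examined through 8 genes chosen by name, with earlier results of these data known. The set holds 7 enzymes of the pathway (Hmgcs1, Idi1, Fdft1, Sqle, Lss, Cyp51 and Dhcr7) and Insig1, the sterol-controlled brake on it. They are 8 of the 23462 genes that could be named on the array, and 12 probes measure them. RNA of colon samples from male mice, 3 control and 3 Islr knockout, was measured on single-colour Agilent arrays, 1 for each sample. The series' design says that the samples were flow separated, without naming a gate or marker. According to the sample source, every animal of both groups had drunk 3.5% dextran sulfate sodium, which injures the colonic epithelium, for 5 days and then recovered for 1 day. The field for the treatment protocol, in contrast, says that none was given. The knockout is named only as such: allele, deleting promoter or Cre, strain, age and the number of animals behind a sample are not stated in the labels. The comparison asked how the colon of Islr knockouts differed from that of controls after this course. Since the labels do not say that the samples of a group came from separate animals, p-values measure only the spread between these arrays.

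Cholesterol is built from acetyl-CoA through mevalonate, farnesyl diphosphate, squalene and lanosterol, mostly on the endoplasmic reticulum. The enzymes are induced together by the transcription factor SREBP-2. When sterols are plentiful, SREBP-2 is held in the endoplasmic reticulum by its escort SCAP and the Insig proteins; when sterols run low it is carried to the Golgi, cut, and sent to the nucleus, where it binds sterol regulatory elements, often beside CCAAT boxes bound by NF-Y. Oxysterols act in the opposite sense through the LXR receptors, which raise genes of sterol efflux. The intestine is among the tissues that make cholesterol as well as take it up.

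The promoter table of RefSeq (GRCm38.p6) held 6 of the 8 genes, and the sequences just upstream of 4 of them are shown. Hmgcs1, Cyp51 and Dhcr7 are shown because they hold a loose match to the sterol regulatory element, and Idi1, which has none, for contrast. Each is printed 5′ to 3′ on the gene's strand, over the 200 bases that end at the base before the transcript start. Capitals mark matches to TCACNNCA, a loose form of the sterol regulatory element, and to CCAAT, on either strand (ATTGG is CCAAT on the other strand). The windows are chr13:119690151-119690350 (plus strand) for Hmgcs1, chr13:8885406-8885605 (plus) for Idi1, chr5:4104698-4104897 (minus) for Cyp51 and chr7:143830014-143830213 (plus) for the most downstream of 3 listed starts of Dhcr7.
Hmgcs1: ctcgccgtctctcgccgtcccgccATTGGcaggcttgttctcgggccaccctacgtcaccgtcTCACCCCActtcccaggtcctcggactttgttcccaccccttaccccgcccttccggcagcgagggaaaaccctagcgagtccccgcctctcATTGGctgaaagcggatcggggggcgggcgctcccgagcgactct
Idi1: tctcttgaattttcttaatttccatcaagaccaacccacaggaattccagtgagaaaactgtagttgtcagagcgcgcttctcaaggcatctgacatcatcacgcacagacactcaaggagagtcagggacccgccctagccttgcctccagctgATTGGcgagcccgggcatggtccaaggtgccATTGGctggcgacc
Cyp51: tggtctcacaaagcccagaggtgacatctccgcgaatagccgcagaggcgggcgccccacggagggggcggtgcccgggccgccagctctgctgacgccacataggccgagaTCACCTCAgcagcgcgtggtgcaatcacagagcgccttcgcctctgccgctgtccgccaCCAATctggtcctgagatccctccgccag
Dhcr7: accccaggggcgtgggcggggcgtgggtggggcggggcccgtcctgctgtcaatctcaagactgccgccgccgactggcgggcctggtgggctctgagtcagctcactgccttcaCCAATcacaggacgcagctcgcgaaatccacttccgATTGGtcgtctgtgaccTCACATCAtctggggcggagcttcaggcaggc

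The 6 genes have 8 listed starts, 3 of them of Dhcr7, and the table's promoters are counted by start. Over the 250 bases upstream, CCAAT was found at 6 of the 8 starts, against 33.8% of 32851 promoters in the table. It was at every gene, but in Dhcr7 at the third start alone. GGGCGG, the Sp1 site, was at 7 of the 8 (all but the second start of Dhcr7), against 32.7%. The stricter element TCACNCCAC was found at 1 of the 8, that of Hmgcs1, where it starts 137 bases before the transcript; 1.05% of all promoters hold it. A longer classical form of the element was at none of the 8 (0.0731% of promoters). TCACNNCA, a form chosen after the sequences were seen, was at 4 of the 8, those of Hmgcs1 and Cyp51 and 2 of Dhcr7, and 11.4% of promoters hold it. In Cyp51 it begins 88 bases before the start. In Dhcr7 it begins 130 bases before the second start and 32 before the third, and the first start has none. The E-box CANNTG was at 7 of the 8, Cyp51 being without it, against 66.2% of promoters. Lss and Insig1 each carry a CCAAT on the other strand, first base 62 and 216 bases upstream. A match is a run of letters, not a shown binding site.

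Signals are on a log2 scale from which the 75th percentile of the same array was subtracted, so 0 is that percentile and a step of 1 is a doubling; levels are not compared between probes. Every member probe was well above background on all 6 arrays. Spots that the scanner software marked as outliers were taken as missing, which struck 12 of the 72 member spots, and a probe with fewer than 2 usable spots in a group was not tested. This removed Sqle and 1 of 3 Lss probes, leaving 10 probes of 7 genes. Of these 10 probes, 9 were higher in the knockout, as were 17677 of all 35351 tested probes. Only Dhcr7 passed a 5% false discovery rate over all tested probes in limma; 1.55% of all tested probes were called higher and 2.42% lower, 3.97% in all. At an unadjusted p under 0.05 in limma, 4 of the 10 probes were higher (12.8% of all tested probes). With outlier spots kept, all 3 knockouts lay above all 3 controls at 6 of the 12 probes, in 5 genes, against 17.3% of all probes. With 3 arrays against 3, an exact two-sided permutation test cannot go below p = 0.1, the value of each of these 6 probes. The median difference over the 7 tested genes, with the brightest tested probe for each, was 0.47 on the log2 scale, against 0.01 over all 16451 tested genes. Since the genes were chosen with earlier results of these data known, these shares and medians describe them and are not an independent test.

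**Figure D1:**
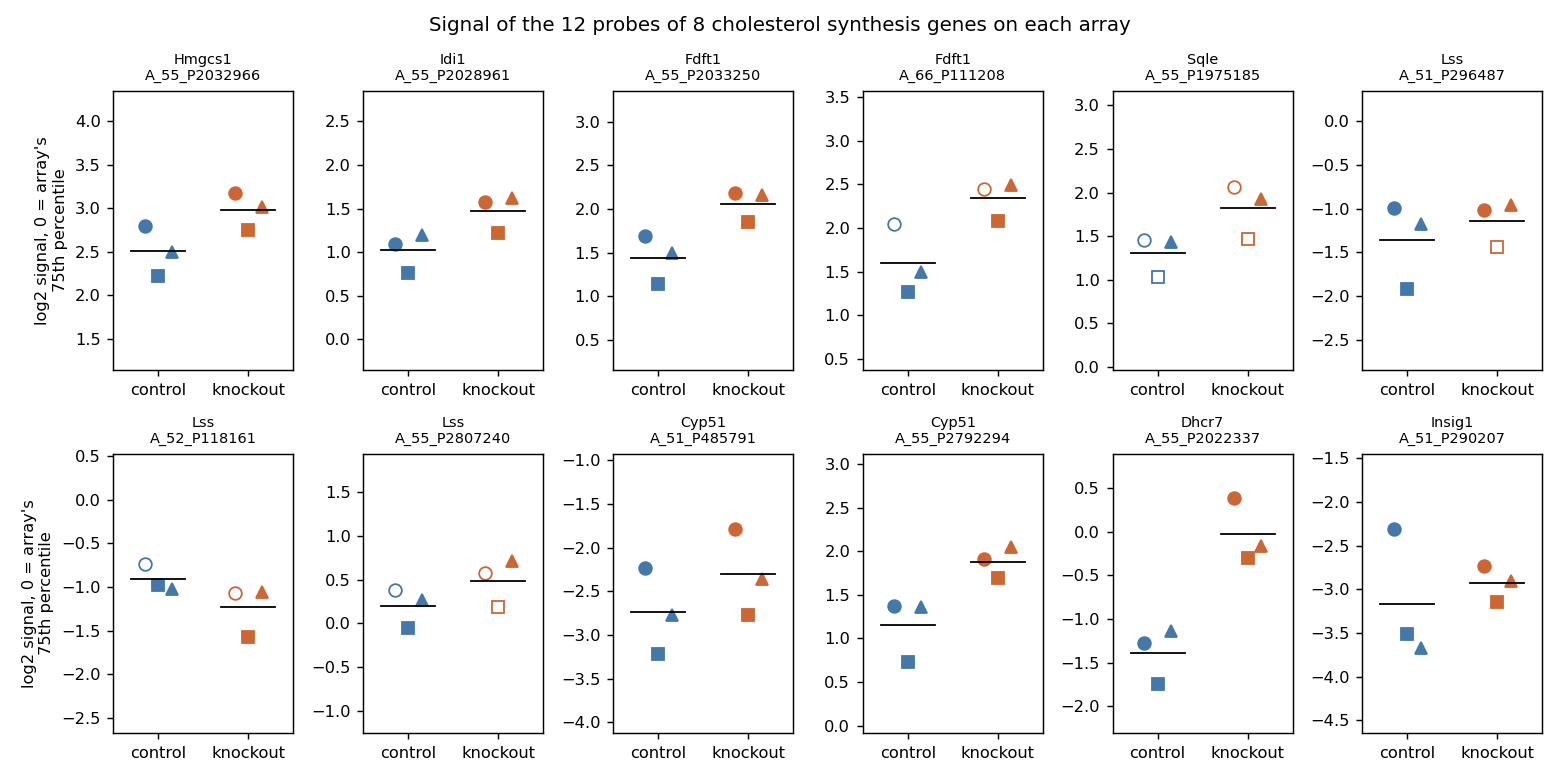
Log2 signal (0 is the array's 75th percentile) of the 12 probes on each array; blue, control; orange, knockout; circle, square and triangle, replicates 1, 2 and 3; open symbols, outlier spots; line, mean of the 3 arrays; every panel spans 3.2 log2 units. The knockouts of Dhcr7 stand clear of its controls, and replicate 2 of the knockouts (square) is the lowest knockout at all 12 probes.

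Islr itself checked the labels: its probe read 1.57 (an outlier spot), 1.24 and 1.21 in control replicates 1 to 3 and -1.40, -0.93 and -1.31 in the knockouts. It was lower by 2.44 in the knockout (limma difference -2.44, SE 0.21, adjusted p 0.0171; -2.58 to -2.34 and 0.013 to 0.058 in the 4 fits possible with an array left out). Before scaling, the 75th percentile was 4910.5 to 5820 intensity units on knockout arrays and 6352.7 to 7110.5 on control arrays, and outlier spots made up 3.26% to 16.0% of an array. If the names of the scans give the layout, each genotype filled its own row of the slide. Position on the slide and genotype cannot then be told apart.

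Hmgcs1 makes HMG-CoA from acetoacetyl-CoA, an early step of the mevalonate pathway. Its signal was 2.80, 2.22 and 2.5 on the control arrays, against 3.18, 2.75 and 3.01 on knockout arrays. The groups overlapped by a small margin, since knockout replicate 2 lay just below control replicate 1. The difference was 0.47 (SE 0.21, 95% interval -0.02 to 0.97), a 1.39-fold higher signal that did not pass in limma (adjusted p 0.204).

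Idi1 interconverts the 5-carbon isoprene units from which all isoprenoids are built. Its signal was 1.1, 0.77 and 1.20 on control arrays, against 1.57, 1.22 and 1.63 on knockout arrays. The highest control and the lowest knockout were 0.02 apart. The difference was 0.45 (SE 0.19, 95% interval -0.01 to 0.91; limma adjusted p 0.193), close to that of Hmgcs1.

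Fdft1, squalene synthase, commits farnesyl diphosphate to sterols. Its first probe (A_55_P2033250) read 1.69, 1.15 and 1.5 on control arrays, against 2.18, 1.85 and 2.16 on knockout arrays, with no overlap. It was higher by 0.62 (SE 0.20, 95% interval 0.15 to 1.09), or 1.54-fold, with an adjusted p of 0.109 in limma. Its second probe (A_66_P111208) had an outlier spot in each group and, with these kept, read 2.04, 1.27 and 1.49 against 2.45, 2.08 and 2.49. Without them the difference was 0.91 (SE 0.25, limma adjusted p 0.105), so both probes gave the same direction and neither passed.

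Sqle, squalene epoxidase, is a rate-limiting enzyme of the pathway. Its only probe was an outlier spot on control replicates 1 and 2 and knockout replicates 1 and 2 and was not tested. As measured, it read 1.45, 1.04 and 1.43 on control arrays, against 2.07, 1.47 and 1.93 on knockout arrays. The groups did not overlap, by 0.02. With outlier spots kept, the difference was 0.51 (SE 0.22, limma adjusted p 0.189), a 1.43-fold higher signal; in that fit 1.96% of all tested probes were called higher.

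Lss, lanosterol synthase, folds the epoxide into the first sterol, and its 3 probes disagreed. The brightest (A_55_P2807240) had 3 outlier spots and was not tested; as measured it read 0.38, -0.05 and 0.26 on control arrays, against 0.58, 0.18 and 0.71 on knockout arrays, which overlap. A second (A_51_P296487) differed by 0.37 (SE 0.31, limma adjusted p 0.483), and the third (A_52_P118161) by -0.31 (SE 0.26, adjusted p 0.484). The third was the only member probe whose difference was below 0, with controls of -0.74, -0.97 and -1.03 and knockouts of -1.07, -1.57 and -1.06 when outlier spots were kept, and all knockouts below all controls. No direction can be given for Lss.

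Cyp51 removes a methyl group from lanosterol. Its brighter probe (A_55_P2792294) read 1.37, 0.73 and 1.37 on control arrays, against 1.91, 1.70 and 2.05 on knockout arrays. All knockouts lay above all controls, and control replicate 2 stood lowest. The difference was 0.73 (SE 0.23, 95% interval 0.19 to 1.27), 1.66-fold, with a limma adjusted p of 0.104. The dimmer probe (A_51_P485791) differed by 0.44 (SE 0.34, adjusted p 0.447), with overlapping groups.

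Dhcr7 reduces 7-dehydrocholesterol, also the precursor of vitamin D, to cholesterol in the last step of one branch. Its signal was -1.28, -1.74 and -1.14 on control arrays, against 0.39, -0.31 and -0.16 on knockout arrays. The lowest knockout lay 0.83 above the highest control, the widest gap among the 12 probes. Dhcr7 rose in the knockout by 1.36 (SE 0.25, 95% interval 0.75 to 1.97), or 2.57-fold, with a limma adjusted p of 0.0439. The call was lost whichever of the 6 arrays was left out: the difference then ranged from 1.15 to 1.5 and the adjusted p from 0.0514 to 0.121.

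Insig1 encodes the endoplasmic reticulum protein that retains the SCAP-SREBP complex, and is itself a target of SREBP. Its signal was -2.31, -3.52 and -3.67 on control arrays, against -2.73, -3.14 and -2.90 on knockout arrays. Control replicate 1 was above every knockout and the other controls were below them all. The difference was 0.24 (SE 0.37, 95% interval -0.65 to 1.13; limma adjusted p 0.713), an interval that holds changes of either direction. It was 0.67 without control replicate 1 and -0.01 without control replicate 3.

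**Figure D2:**
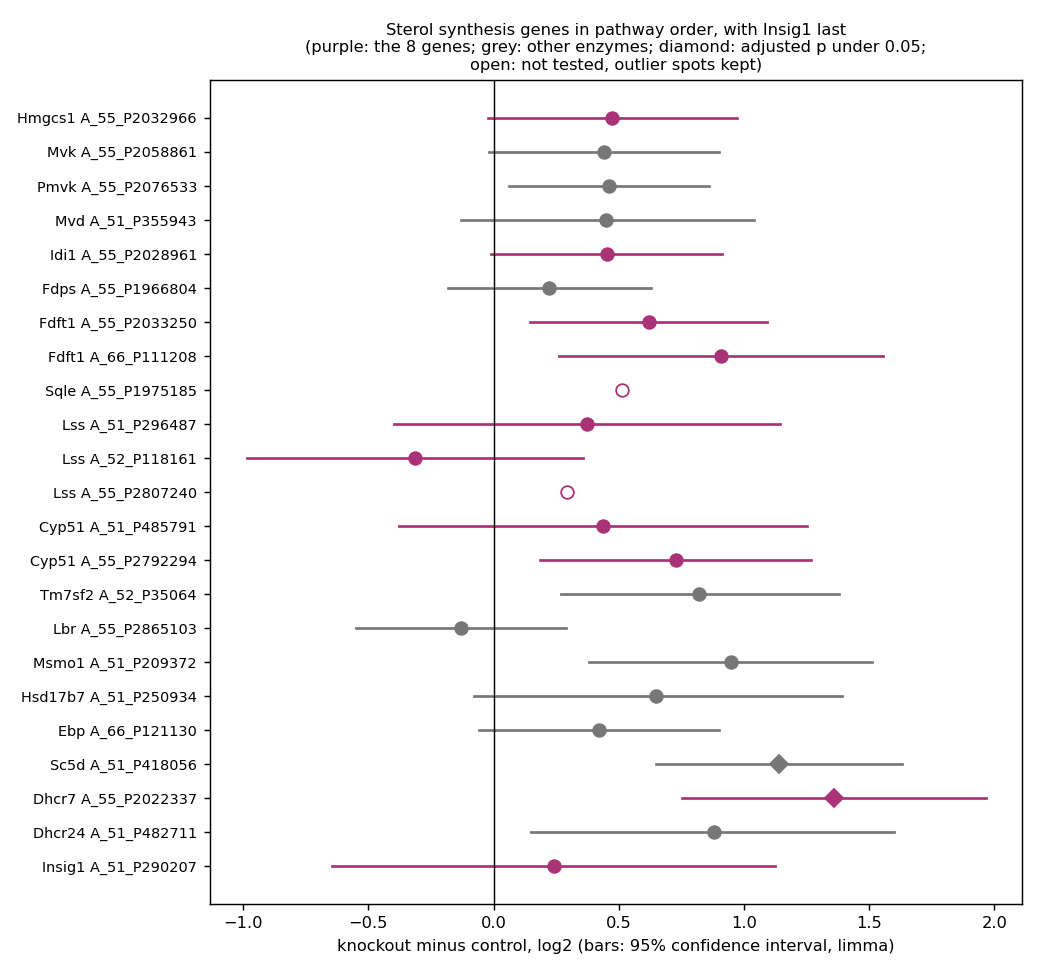
Knockout minus control on the log2 scale with the 95% confidence interval of limma, for the member probes (purple) and 11 other sterol enzymes (grey), from top to bottom along the pathway, with Insig1 last; diamonds mark an adjusted p under 0.05 and open circles the 2 untested member probes. Most points lie between 0.2 and 1, with Sc5d (1.14) and Dhcr7 (1.36) farthest to the right and only Lbr and an Lss probe left of 0.

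The other enzymes of sterol synthesis were taken as a list of 14, of which 13 were on the array and 12 tested. Of the 12, 11 were higher in the knockout; the median difference was 0.56, the lowest -0.13 and the highest 1.14, and 8421 of all 16451 tested genes were higher. Only Sc5d was called (1 of 12 genes, against 1.35% of all tested genes called higher), and 6 of 12 had an unadjusted p under 0.05, all higher (13.7% of all tested genes). Sc5d makes 7-dehydrocholesterol, the substrate of Dhcr7. It read 0.41, 0.58 and 0.89 on control arrays, against 1.98, 1.49 and 1.82 on knockout arrays. It rose by 1.14 (SE 0.20, 2.20-fold, limma adjusted p 0.0420), and the call was kept in 1 of 6 fits with an array left out. A dimmer probe of Hsd17b7, a reductase of sterol demethylation, was also called (1.04, SE 0.20, adjusted p 0.0457); its brighter probe differed by 0.65 (SE 0.28, adjusted p 0.223). That probe, and the following genes, were chosen after their values were seen. Msmo1, which starts removal of the C4 methyl groups, differed by 0.95 (SE 0.24, limma adjusted p 0.0705) and Tm7sf2, a sterol reductase, by 0.82 (SE 0.23, adjusted p 0.0863), neither passing. Their dimmer probes differed by 1.70 (SE 0.35, limma adjusted p 0.0688) and 0.57 (SE 0.21, adjusted p 0.15) and did not pass. Lbr, a nuclear envelope protein with the same sterol reductase activity as Tm7sf2, was the 1 tested gene below 0, at -0.13 (SE 0.17, adjusted p 0.671).

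Regulators of SREBP and carriers of sterol uptake made a list of 13, of which 12 were tested: 8 were higher, with a median of 0.13. In limma 0 were called; at an unadjusted p under 0.05 there were 3 of 12, 1 higher and 2 lower, where 13.7% of all tested genes were higher and 14.5% lower. Srebf2, which encodes SREBP-2, read -0.62, -0.83 and -0.60 on control arrays, against -0.11, -0.15 and 0.13 on knockout arrays. The groups were apart, with a difference of 0.64 (SE 0.16, limma adjusted p 0.0696). Srebf1, the factor of fatty acid synthesis, differed by -0.12 (SE 0.15, adjusted p 0.650) and Insig2, the second Insig gene, by 0.13 (SE 0.21, adjusted p 0.728). Stard4, a cytosolic sterol carrier, differed by 0.67 (SE 0.30, adjusted p 0.214). Scarb1, the receptor for cholesterol in HDL, had a difference below 0 that did not pass (-0.96, SE 0.19, adjusted p 0.0531). Its dimmer probe differed by only -0.24 (SE 0.29, limma adjusted p 0.632).

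Genes of LXR signalling, sterol efflux and storage formed a list of 14 with 13 tested. Of these, 6 were higher and 7 lower, with a median of -0.09. Mylip, an LXR-induced ubiquitin ligase, was the only one called lower (2.47% of all tested genes were). It read 1.29, 1.27 and 1.20 on control arrays, against 0.25, 0.59 and -0.05 on knockout arrays, and fell by 0.99 (SE 0.20, limma adjusted p 0.0471); the call was kept in 1 of 6 fits with an array left out. Abca1, which exports cholesterol to apolipoproteins, read 1.45, 1.37 and 1.45 on control arrays, against 0.23, 0.70 and 0.72 on knockout arrays. The difference of -0.87 (SE 0.18) did not pass (adjusted p 0.0524). At an unadjusted p under 0.05 the list had 5 of 13 genes lower (14.5% of all tested genes) and 1 higher (13.7%). The other 4 of these 6 were named after their values were seen, and none passed. The 1 higher was Abcg5, which with its partner Abcg8 pumps sterols out of the cell. It read -2.83, -2.52 and -2.30 on control arrays, against -0.50, -1.74 and -0.27 on knockout arrays, with no overlap. The difference was 1.71 (SE 0.40, limma adjusted p 0.0613). With an array left out it ranged from 1.43 to 2.16 and the limma adjusted p from 0.0247 to 0.157. It passed in 1 of these 6 fits, that without knockout replicate 2. Abcg8, given here as the partner of Abcg5, differed by only 0.15 (SE 0.25, limma adjusted p 0.736), with overlapping groups. Abcg1, a further LXR target, was at -0.56 (SE 0.20, adjusted p 0.134). Soat2, which esterifies cholesterol, was at -0.80 (SE 0.24, adjusted p 0.0952), and Ch25h, which makes an oxysterol, at -2.13 (SE 0.67, adjusted p 0.117).

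Fatty acid synthesis, the branch steered by SREBP-1, was measured by 11 tested genes of 13. In limma 0 were called and 3 of 11 had an unadjusted p under 0.05, 2 higher and 1 lower (13.7% and 14.5% of all tested genes); the median was 0.31, and 0.01 with outlier spots kept. Acss2, which makes acetyl-CoA from acetate and so feeds both branches, had the largest difference (1.55, SE 0.39, adjusted p 0.0694): it read -0.19, -1.22 and -0.77 on control arrays, against 1.52, 0.33 and 0.63 on knockout arrays. The neighbouring desaturases differed in sign, Fads2 at 1.21 (SE 0.27) and Fads1 at -0.77 (SE 0.17), each with an adjusted p of 0.0568. A dimmer probe of Fads2 differed by only 0.32 (SE 0.33, limma adjusted p 0.571). Fasn, fatty acid synthase, differed by 0.31 (SE 0.17, adjusted p 0.304), and Me1, which supplies NADPH, by -0.72 (SE 0.35, adjusted p 0.271).

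Within each group the probes ranked the arrays much alike. Knockout replicate 2 was the lowest knockout at all 12 probes, control replicate 2 the lowest control at 10, and control replicate 1 the highest control at 10. The 8 genes were averaged, each centred on its own mean (brightest probe, tested or not, outlier spots kept). The arrays stood at -0.01, -0.62 and -0.27 on control arrays, against 0.47, 0.04 and 0.39 on knockout arrays, so control replicate 1 was close to knockout replicate 2. Among 12957 other named genes measured on all 6 arrays, the profiles most like this one were those of Tex12, Pwwp2b, Dcxr, Tom1l1 and Sult1c2 (Pearson r of 0.9932 to 0.9997 over 6 arrays). The 6 arrays fall in the groups compared, and 1126 genes (8.69%) exceeded an r of 0.9, so a high r is common here.

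**Figure D3:**
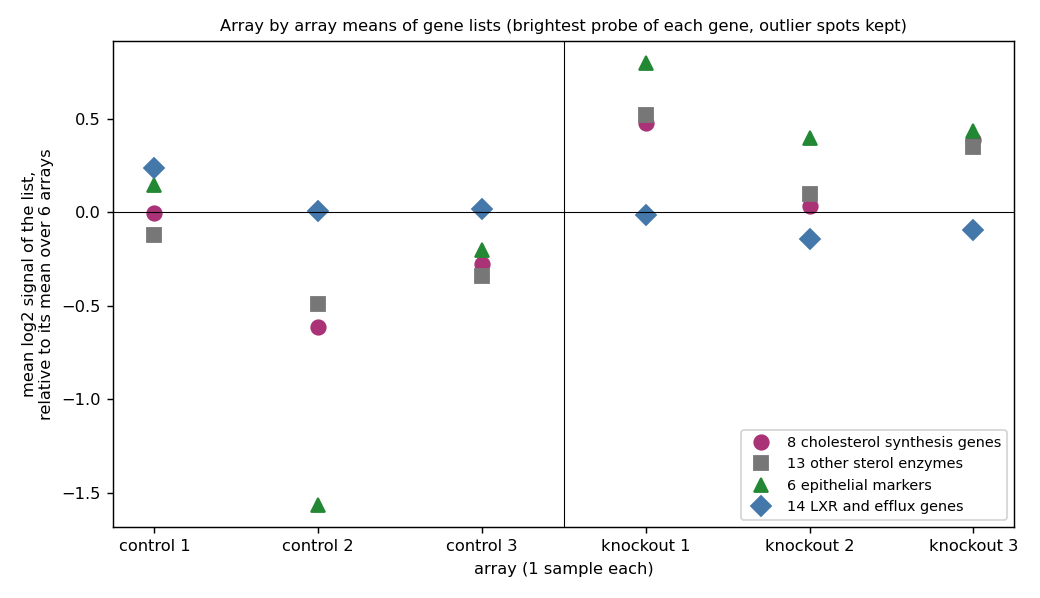
Mean log2 signal of 4 gene lists on each array, relative to the list's mean over the 6 arrays, with the brightest probe for each gene and outlier spots kept. The cholesterol synthesis genes (purple) and the other sterol enzymes (grey) lie almost together, and the epithelial markers (green) share their lowest array, control replicate 2. The LXR and efflux genes (blue) lie slightly lower on knockout arrays. Before centring, their means were 0.10, -0.13 and -0.12 on control arrays, against -0.15, -0.28 and -0.23 on knockout arrays.

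Markers of epithelium differed in the same direction. All 4 tested of 6 epithelial markers (Epcam, Cdh1, Krt8, Krt18, Krt19 and Vil1) were higher in the knockout (median 1.00). In limma 0 were called, and 1 of 4 was higher at an unadjusted p under 0.05 (13.7% of all tested genes). With outlier spots kept, the mean of the 6 was 2.78, 1.07 and 2.43 on control arrays, against 3.43, 3.03 and 3.07 on knockout arrays, and their summed signal, in multiples of the 75th percentile, was 14 to 43.2 in controls and 50.5 to 67.1 in knockouts. The 8 cholesterol genes summed to 13.8 to 20.5 and 21.4 to 28.4. Without control replicate 2 the median difference of the epithelial markers was 0.54 in place of 1.01, that of the differentiated colonocyte markers 0.79 in place of 1.37, and that of the 8 members 0.35 in place of 0.49 (outlier spots kept). All 7 tested differentiated colonocyte markers were higher (median 1.58), as were all 5 tested goblet cell markers (0.92). All 7 tested proliferation markers (median -0.70), all 8 fibroblast markers (-0.68), all 4 tested endothelial markers (-1.44) and 5 of 6 neutrophil markers (-3.79) were lower. Adipocyte markers, from a tissue that also makes lipid, differed by a median of 0.22 over 4 tested genes, with summed signals of 6.85 to 19.4 in controls and 4.61 to 9.26 in knockouts. They varied widely within groups. With outlier spots kept, the mean of the 6 was 0.51, -2.68 and -2.55 on control arrays, against -3.05, -0.93 and -1.16 on knockout arrays. Control replicate 1 thus stood far above the other controls. Smooth muscle (median 0.36) and skeletal muscle (0.63, 2 of 6 called higher) markers were on balance higher. Those of macrophages (-0.88, 1 of 5 called lower) and B and plasma cells (-0.91) were on balance lower. T cell markers had a median of -0.19 (1 of 3 tested higher), and -0.05 with outlier spots kept. Enteric nervous system markers had a median of -0.08, with all 3 tested lower. In limma 2 of 8 fibroblast and 5 of 6 neutrophil markers were called lower. Over all tested genes, 1.35% were called higher and 2.47% lower. None of these lists had a marker at background on all 6 arrays. The part of cell composition in the cholesterol gene differences was not tested. Each array measured RNA of many cells together, so fewer cells of a type and less RNA per cell cannot be told apart. Since the series' design calls the samples flow separated without naming a gate, the markers may not describe the whole colon.

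**Figure D4:**
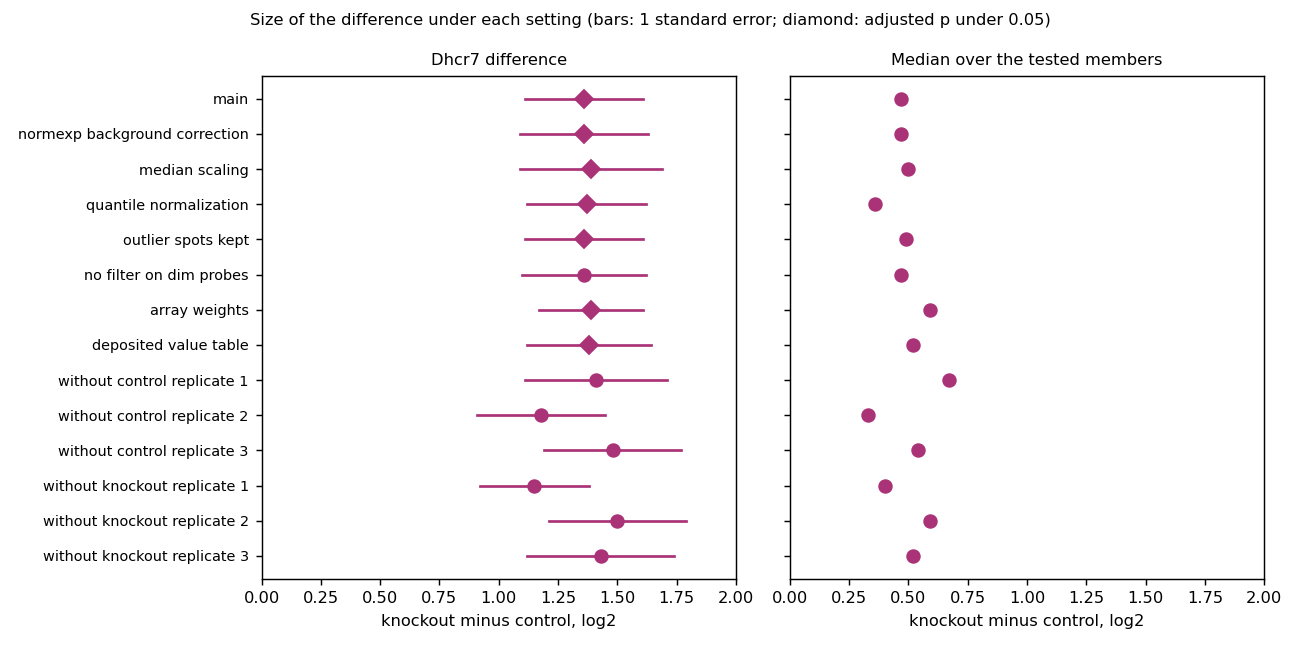
Knockout minus control (log2) of Dhcr7, with 1 standard error, and of the median over the tested members, under the reported setting (main) and each alternative; diamonds mark a limma adjusted p under 0.05. The Dhcr7 difference stays between 1.15 and 1.5, and its diamond is lost in the 6 fits with an array left out and in the fit with no filter on dim probes.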

How the data were processed

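Labelled RNA of 6 colon samples was hybridised to 6 arrays, grouped by the labelled genotype; replicate numbers only name samples. Per the file headers, the deposited processed signal is a linear red-channel intensity; the software version they give is 11.5.1.1 of Agilent Feature Extraction (10.7 in the submitters' processing notes) and the design is 074809, background-subtracted and spatially detrended, with no scaling between arrays; the labels name Cy3 and a green column. No spot was saturated. The signal was taken to log2, the array's 75th percentile of non-control spots subtracted and outlier spots set missing. Probes well above background on all arrays of a group, with at least 2 usable values per group, were fitted (lmFit and eBayes, limma 3.58.1, R 4.3.3; 35351 of 56605 probes) with genotype alone, two-sided, with Benjamini-Hochberg adjustment over them. The brightest tested probe stood for a gene in the counts and medians of lists. Array means, summed signals and other list values with outlier spots kept used the brightest probe, tested or not. For Lss these are different probes, A_52_P118161 (-0.31) and A_55_P2807240 (0.29, outlier spots kept). The fit was tested on simulated data. RefSeq accessions without versions named 33767 probes (GRCm38.p6 names; the files use mm9). Gene and marker lists, the rule for naming genes (all members; called list genes or else up to 4 with the lowest p; 7 fixed regulators and enzymes; the 5 most alike profiles) are as stated here; members and lists were chosen with earlier results of these data known. Alternatives were normexp (offset 50), median scaling, quantile normalization, outlier spots kept, no dim filter, array weights, the deposited value table of intensities (log2 correlation with the scanner files of at least 0.999999), the mean of a gene's probes, and each array left out. The number of arrays limits precision. Some genes of the lists enter the counts and medians but are not reported here by name.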

Additional observations from a re-analysis of the deposited data

How the results depend on the processing

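All alternatives kept the direction of every tested member probe except Insig1, at -0.01 without control replicate 3, and the median over the members stayed between 0.33 and 0.67. Dhcr7, the 1 called member, lost its call without a dim filter (adjusted p 0.0672; 0 members called in limma, 4 at an unadjusted p under 0.05) and with any array left out (0 called in each of the 6 fits, 1 to 6 probes at an unadjusted p under 0.05). Over all tested probes, 11156 of 51784 had such a p without a dim filter. With an array left out, 5713 to 10709 had it, of 31751 to 36275 tested. Array weights called 5 of 10 member probes, of Hmgcs1, Fdft1 (both probes), Cyp51 and Dhcr7, in a fit that called 8119 of all 35351 tested probes. Of all 35351 tested probes, 2558 were called with normexp (51.1% of the calls higher, against 39.1% in the main fit). Median scaling called 2249 of these 35351, quantile normalization 2185 and array weights 8119. Of 40172 tested probes, 1948 were called with outlier spots kept and 2274 from the value table. Without a dim filter, where more probes were tested, 484 of 51784 were called, and with an array left out 40 to 2114. Other sterol enzymes gave 0 calls without a dim filter (6 at an unadjusted p under 0.05), 5 with array weights and 0 to 2 with an array left out, when their median ranged from 0.50 to 0.82. The SREBP and uptake list gave 1 call with normexp, quantile normalization, outlier spots kept and the value table. It was Scarb1 each time, and lower. With array weights this list gave 2 calls, Scarb1 lower (-0.85) and Srebf2 higher (0.74). The LXR and efflux list gave 2 calls with median scaling, quantile normalization, outlier spots kept and the value table, Mylip and Abca1, both lower. With normexp there were 3, these 2 and Abcg5, which was higher. Array weights gave 6, Abcg5 higher and Mylip, Abca1, Abcg1, Soat2 and Ch25h lower. There were 0 calls without a dim filter (6 at an unadjusted p under 0.05) and 0 to 2 with an array left out. This list's median was -0.20 with array weights and -0.34 to 0.07 with an array left out. The fatty acid list gave 3 calls with normexp (Fads2 and Acss2 higher, Fads1 lower) and 1 with median scaling (Fads1, lower). Quantile normalization gave 2 (Fads2 higher, Fads1 lower). Array weights gave 4, among them Fads2 and Acss2 higher and Fads1 lower. With an array left out there were 0 to 1. The median of this list was 0.01 with outlier spots kept and 0.04 from the value table. For these changes the cause was not tested. No paired analysis was possible because the labels link no control sample to a knockout sample.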
